A study of Mus musculus with 2 samples.

Results

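The cells described here were chosen by their counts of Lyz2, the gene for lysozyme C-2, among mouse embryonic stem cells profiled by droplet single-cell RNA sequencing. A cell entered the set with at least 10 Lyz2 UMIs (unique molecular identifiers, each standing for 1 captured RNA molecule), fewer than 50 summed UMIs of the fibroblast-associated genes Col1a1, Col1a2, Bgn, Mgp and S100a4, at least 18000 UMIs and 1000 genes in all, and at most 10% of UMIs from mitochondrial genes. Of 54279 cells that passed the general filters, 103 were members, 100 of them at time 1 and 3 at time 2, and the remaining 54176 served as the comparison. Because Lyz2 and the 5 fibroblast genes selected the members, their levels below are a description.

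The cells came from 9 embryonic stem cell lines of the inbred strain C3H/HeSn-Paf/J, 3 each from XX, XO and XY embryos, which were pooled. The culture medium held serum and the cytokine LIF, and the dishes were coated with gelatin and covered with a feeder layer of irradiated mouse embryonic fibroblasts. The labels record no step that removed the feeders. The time 1 library was made at the initial, early passage and the time 2 library after 10 more passages, with 1 library per time point and no replicates. Cells could not be traced to single lines here, so both libraries are mixtures, no test between them was possible, and the intervals given cover counting error only.

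Lysozyme is a secreted enzyme that cleaves the cell wall of bacteria, and in the mouse Lyz2 is the form made by macrophages, monocytes and granulocytes, and also by type 2 cells of the lung. Macrophages take up and digest particles and dead cells. They carry the growth factor receptor Csf1r, the surface adhesion receptor Adgre1, known as F4/80, and the adaptors Tyrobp and Fcer1g, and they make the 3 chains of the complement starter C1q. Embryonic stem cells instead depend on a set of pluripotency regulators such as Pou5f1, Sox2 and Nanog.

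Depth was high in both libraries. A cell held a median of 45008 UMIs and 6038 genes at time 1 and of 52574 UMIs and 6226 genes at time 2. Time 1 members held a median of 35924 UMIs, ranging from 18071 to 158422, against 45017 in the other cells of that library. The libraries shared 2155 of their barcodes, which included 194 that were cells in both, and no member's barcode was a cell in the other library. A doublet caller, Scrublet, marked 2647 cells (10.2%) at time 1 and 1059 (3.74%) at time 2. None of the 103 members was among them. Their doublet scores had a median of 0.29 and reached 0.417 at time 1, where the threshold was 0.43 and the other cells had a median of 0.243. The median was 0.33 in the Pf4-led, 0.381 in the Cxcl2-led, 0.24 in the Ankrd1-led and 0.136 in the Lgals3-led members, sets described below. The highest of the 3 time 2 members had 0.607 at a threshold of 0.62.

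Lyz2 UMIs were rare outside the members. At time 1, 24351 of 25962 cells had none, 1220 had 1, 104 had 2, and 103 had 5 to 9. Outside the members were also 10 time 1 cells with 17 to 1755 Lyz2 UMIs, set apart only by the fibroblast limit. They stayed in the comparison with 7 to 1567 UMIs of 20 macrophage markers, so its levels of such genes include theirs. At time 2, 28266 of 28317 cells had none, 47 had 1, and 1 had 3. The members had 10 to 2101 Lyz2 UMIs with a median of 46, and the 3 of time 2 had 642, 180 and 16. Members made up 0.385% of the cells at time 1 (exact Clopper-Pearson 95% interval 0.314% to 0.468%) and 0.0106% at time 2 (0.00218% to 0.031%). Counts at time 1 thinned out without a gap at the threshold. Just outside it, 30 cells with 8 or 9 Lyz2 UMIs and fewer than 50 fibroblast UMIs had a median of 6 UMIs over 20 macrophage markers. Just inside it, 13 members with 10 or 11 Lyz2 UMIs had a median of 5.

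**Figure D1:**
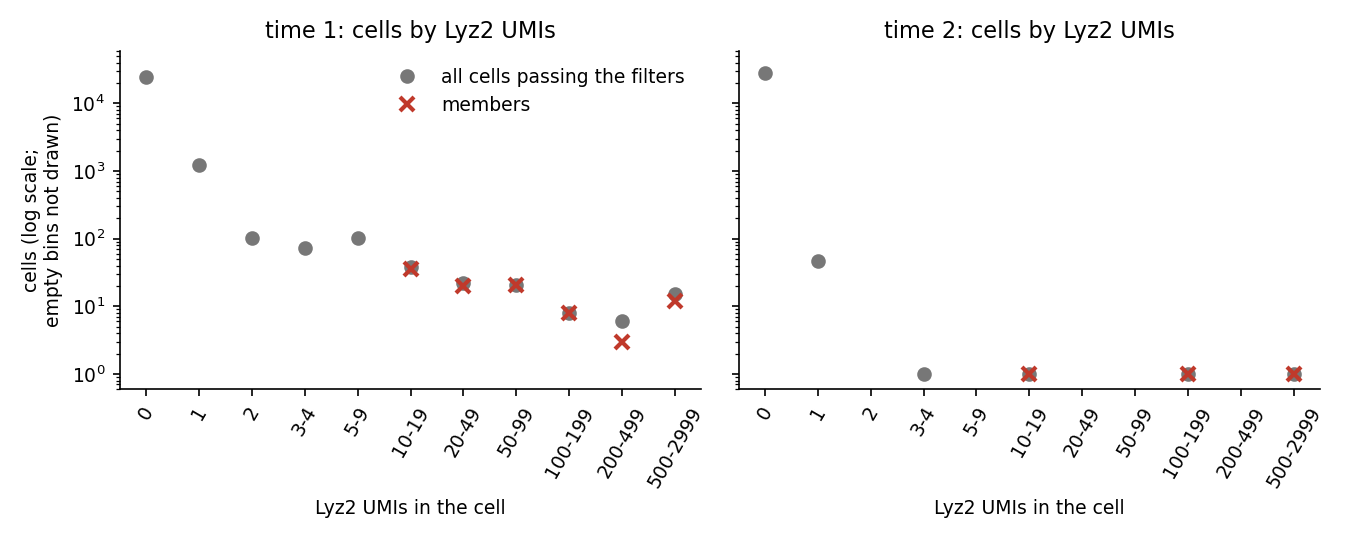
Number of cells (vertical axis, log scale) by the Lyz2 UMIs they hold (horizontal axis, bins) at time 1 and time 2, with grey circles for all cells that passed the filters and crosses for the members. At time 1 the cells run on from 0 to the highest bin without a gap, and at time 2 only 4 cells hold more than 1 Lyz2 UMI.

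Low-count barcodes, which carry free RNA, held little Lyz2. In barcodes of 500 to 2000 UMIs the gene stood at 4.29 CPM (a gene's UMIs divided by all UMIs of the pool and scaled to the standard common total) at time 1 and 0.0825 CPM at time 2. The members' summed UMIs gave 3734 CPM, those of all other cells 2.30 CPM and those of the other time 1 cells 5.26 CPM. Both sums of other cells include 10 time 1 cells with 17 to 1755 Lyz2 UMIs that only the fibroblast limit kept out of the members. They are therefore not the level of cells with little Lyz2 alone. With every cell thinned to 10000 UMIs, 0.74% of the other cells still held a Lyz2 UMI.

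Lyz2 lies on chromosome 10 of GRCm38, from 117277331 to 117282321 on the minus strand, and is protein-coding. Its near-identical neighbour Lyz1 starts 5475 bases further along, at 117287797, so reads that both genes match cannot be split with certainty. Lyz1 was counted at 1.68 CPM in the members, in 4 of 103 cells.

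To show the regulatory sequence in front of genes that stood out together, the stretches before the start sites of Lyz2, of the complement gene C1qb and of the protease gene Ctss follow, from RefSeq (GRCm38.p6), 5′ to 3′ along the gene. Capitals mark GAGGAA or its reverse complement TTCCTC, the core letters bound by the myeloid transcription factor PU.1, the product of Spi1. The Lyz2 stretch is chr10:117282322-117282522 on the minus strand, C1qb is chr4:136886201-136886450 on the minus strand and Ctss is chr3:95526536-95526785 on the plus strand.
Lyz2: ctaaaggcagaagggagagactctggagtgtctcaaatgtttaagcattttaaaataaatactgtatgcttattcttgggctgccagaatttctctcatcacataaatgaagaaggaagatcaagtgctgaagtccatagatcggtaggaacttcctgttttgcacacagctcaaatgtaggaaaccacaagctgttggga
C1qb: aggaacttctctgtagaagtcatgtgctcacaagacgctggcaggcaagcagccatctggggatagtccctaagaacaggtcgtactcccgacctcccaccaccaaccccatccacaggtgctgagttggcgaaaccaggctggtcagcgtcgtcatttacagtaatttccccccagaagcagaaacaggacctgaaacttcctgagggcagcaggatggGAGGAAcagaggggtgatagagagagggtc
Ctss: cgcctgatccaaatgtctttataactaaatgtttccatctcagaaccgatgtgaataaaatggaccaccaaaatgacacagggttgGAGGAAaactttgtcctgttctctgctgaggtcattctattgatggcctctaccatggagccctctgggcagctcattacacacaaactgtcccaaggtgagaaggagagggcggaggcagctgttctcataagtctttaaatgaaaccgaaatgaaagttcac
In windows from 250 bases before to 50 after a gene's start, 28.3% of 32851 RefSeq promoters and 31.3% of 27025 genes held the letters on either strand. Of the 20 genes with the highest ratios named below, 14 had a promoter in the table and 11 of those held the letters. A match is a description of the sequence, not of binding.

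Against the other cells, the members stood out by macrophage genes. Among 2871 genes with at least 50 CPM in the members' or the other cells' summed UMIs, 75 were at least 4-fold higher in the members on the scale of CPM plus 1 (2.61%), and none was at least 4-fold lower (0%). The 75 include Lyz2, which the selection fixed as high, and 74 other genes. Counts of higher genes among all genes below also include Lyz2. The median log2 ratio over the 2871 genes was -0.10. Lists of genes are counted below over every measured gene, at any level, since a gene nearly absent from the other cells reaches 50 CPM only through the members. At any level 310 of 28268 genes were at least 4-fold higher (1.1%). Of 20 macrophage markers 19 were at least 4-fold higher at any level, and the median log2 ratio over the 20 was 5.21. Without the 12 members that had few pluripotency UMIs, described below, 32 genes were at least 4-fold higher and the macrophage median was 4.18, with 17 of 20 markers at least 4-fold higher at any level (0.562% of all genes). Since the members were picked on Lyz2 in the same counts, these differences describe the cells picked and were not tested.

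Leaving out Lyz2 and the other genes of the selection, the 20 genes at 50 CPM with the highest ratios were Pf4, C1qb, C1qa, Tyrobp, C1qc, Fcer1g, Gpnmb, Ms4a7, Ctss, Cxcl2, Mmp12, Trem2, Clec4d, Wfdc17, C3ar1, Cd14, Ccl4, Lilrb4a, Cd300c2 and Cd52, with log2 ratios from 8.67 down to 6.02. C1qb stood at 442.2 CPM in the members (exact Poisson 95% interval 423.5 to 461.5) and at 0.324 CPM in the other cells. Tyrobp, a signalling adaptor of myeloid receptors, stood at 381.1 CPM (363.8 to 399.1) against 0.319 CPM, and Fcer1g, the shared chain of Fc receptors, at 392.7 CPM (375.1 to 410.9) against 0.603 CPM. These genes were spread over many members: after thinning to 10000 UMIs, 65.0% of members but 0.11% of other cells held a C1qb UMI, and 73.8% against 0.42% held one of Fcer1g. Without thinning, 91 of the 103 members held C1qb and 89 held Fcer1g.

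Single cells made up much of some sums. One member held 46.8% of all members' UMIs of Pf4, a chemokine of platelets and some macrophages, one held 82.9% of those of the elastase Mmp12, and one held 39.7% of those of the lysosomal glycoprotein Gpnmb. For C1qb the top cell held 8.47% and for Fcer1g 5.52%.

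Only 1 gene met the same naming rule in the lower direction: Brca2, a DNA repair gene, at 18.5 CPM in the members and 52.9 CPM in the other cells (log2 ratio -1.47, and -1.01 within time 1).

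Receptors and regulators of macrophages followed the markers. Csf1r stood at 34.5 CPM against 0.14 in the other cells, Adgre1 at 65.5 against 0.05 and Cd68, a lysosomal membrane protein, at 148.4 against 6.96. No Csf1r UMI was found in 61 of the 103 members and no Adgre1 UMI in 52, and of the 38 cells of a set led by Lgals3, 34 and 35 had none. Spi1, whose product drives myeloid fate, stood at 47.6 CPM against 0.61. The list of 12 myeloid transcription factors had a median log2 ratio of 2.24, and 11 of the 12 had ratios above 0. Without the 12 low-pluripotency members its median was 1.52.

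Lists of macrophage functions differed in how many genes were higher in the pooled members. The lists share genes, so their counts are not independent. The C1q chains are both macrophage markers and complement genes, and Cd14 is both a macrophage marker and a phagocytic receptor. Over all genes the share at least 4-fold higher at any level was 1.1%. In the complement list 8 of 15 genes were at least 4-fold higher at any level, among them the C1q chains, the anaphylatoxin receptor C3ar1, and Cfp, which encodes properdin. Of 17 measured phagocytic and scavenger receptors 14 were at least 4-fold higher, among them the Fc receptor Fcgr3 at 59.8 CPM against 0.81 and the lipid receptor Cd36 at 62.3 against 0.08. In the NADPH oxidase list, whose complex makes microbicidal oxygen radicals, all 6 genes were at least 4-fold higher at any level. Without the 12 low-pluripotency members 4 of 6 were, against 0.562% of all genes. Within time 1 also 4 of 6 were, and the share of all genes was not computed there. Cyba was the 1 gene to reach 50 CPM, and it was at least 4-fold higher against all other cells but not within time 1, where its log2 ratio was 1.58, nor without the 12 low-pluripotency members. At least 4-fold higher were also 12 of 18 chemokines and cytokines, 9 of 34 lysosomal genes, 7 of 14 genes of lipid handling and 1 of 9 genes of iron handling. All 34 lysosomal genes had ratios above 0. Per 10000 UMIs of a cell the lysosomal list had a median of 47.2 in the members and 20.6 in the other time 1 cells, but 55.3 in the 1124 cells with 50 or more fibroblast UMIs, so a high level was not particular to the members. Without the 12 low-pluripotency members 0.562% of all genes were at least 4-fold higher at any level. The counts there were 7 of 15 for complement, 9 of 17 for phagocytic receptors and 12 of 18 for chemokines and cytokines. They were 6 of 34 for lysosome, 3 of 14 for lipid handling and 0 of 9 for iron handling. The cathepsins Ctsb and Ctsd, proteases that digest engulfed protein, stood at 1027 and 998.4 CPM against 54.1 and 110.0.

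Markers that separate macrophage types gave a partial match. The list of resident embryonic macrophages had 8 of 10 genes with ratios above 0 and 4 at least 4-fold higher at any level. Folr2 stood at 47.1 CPM against 0.79, while F13a1 and Cd163, also of resident macrophages, had no UMI in any member, and Lyve1 and Timd4 had UMIs in 2 and 1 members. In the 12 low-pluripotency members 6 of the 10 were at least 4-fold higher at any level, against 4.68% of all genes. The list summed there to 4714 CPM against 7.99, of which Pf4 held 4273. Without the 12 cells 2 of 10 were, against 0.562% of all genes, and the sum was 117.1 CPM. Of 8 monocyte markers 3 had UMIs in members, none had a ratio above 0, and the list summed to 174.5 CPM against 254.0. The matrix gene Fn1 made up most of that sum in the other cells. They kept 1124 cells with 50 or more fibroblast UMIs, so the lower sum may be partly built in. Within time 1 the monocyte list summed to 178.6 CPM against 205.9. Ly6c2, Ccr2, Chil3 and Hp had none in any member. The microglial markers Siglech and Gpr34 also had none, and P2ry12 was found in 2 members. The microglial list had 4 of 7 genes with ratios above 0 and 1 at least 4-fold higher at any level. In the 12 low-pluripotency members it had 4 of 7 at least 4-fold higher at any level, against 4.68% of all genes in those cells, and summed to 212.3 CPM against 57.2. Of the osteoclast list 1 gene, Atp6v0d2, was at least 4-fold higher at any level, at 25.7 CPM, and 1 cell held 60.7% of its UMIs. In the 12 low-pluripotency members the osteoclast list summed to 295.0 CPM against 12.1, with 3 of 9 genes at least 4-fold higher at any level.

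Lists of other blood lineages, of alveolar cells and of stromal cells gave the following sums. The neutrophil list summed to 7.16 CPM in the members and 4.04 in the other cells, the alveolar type 2 list to 5.89 and 2.93, the lymphocyte list to 10.9 and 17.9 and the list of dendritic cells and MHC class II to 13.9 and 9.66. No gene of these lists reached 50 CPM or was 4-fold higher in the pooled members. The erythroid and megakaryocyte list summed to 8.42 CPM against 2.33. Of its 10 genes 1 was at least 4-fold higher at any level, against 1.1% of all genes, the platelet chemokine Ppbp at 7.37 CPM against 0.56. The mast cell and basophil list summed to 26.1 against 17.4, with none. In the 12 low-pluripotency members the neutrophil list summed to 11.2 CPM and the alveolar list to 15.7. Each had 1 of 10 genes at least 4-fold higher at any level, against 4.68% of all genes in those cells. No cell of the 12 held more than 3 UMIs of the neutrophil list or 2 of the alveolar list, so these calls rest on few UMIs. In the members the neutrophil list ranged from 0 to 3 UMIs per cell and was 0 in 74 cells, and the alveolar list ranged from 0 to 3 and was 0 in 83. Fibroblast genes the selection had not used summed to 876.8 CPM against 561.1, with a median log2 ratio of -0.11 over 18 genes, and none of the 3 genes at 50 CPM was 4-fold different. In the 12 low-pluripotency members they summed to 2161 CPM, of which Vim, the intermediate filament gene of stromal and blood cells, held 2117 CPM, and 17 of the 18 genes had ratios of 0 or below. Low ratios of these fibroblast genes were partly built in by the selection. Members had fewer than 50 UMIs of the fibroblast genes it used, while the comparison kept 1124 cells at or above that limit. Against only the other cells under the limit, the pooled members' median log2 ratio over the 18 genes was 0.66. For the 12 low-pluripotency members that comparison was not made. Smooth muscle genes summed to 658.9 CPM in the pooled members against 346.1.

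Pluripotency genes were present in most members. The 12 core genes summed to 7878 CPM in the members and 7921 CPM in the others, none was 4-fold different, and their median log2 ratio was -0.43. Pou5f1 stood at 634.5 CPM against 721.4 and Dppa5a, an RNA-binding protein of early embryos, at 5205 against 4638, so that Dppa5a made up most of the sum. Within time 1 the 12 genes summed to 7920 CPM against 8699, with 1 of 12 ratios above 0, and Dppa5a had a log2 ratio of -0.10. The 12 low-pluripotency members, which were picked on these genes, stood at 1334 CPM and the other 91 at 8558. Zfp42, a naive pluripotency marker, stood at 37.3 CPM against 83.4, and within time 1 at 34.7 against 46.4. The naive list summed to 653.0 CPM in the time 1 members and 668.1 in the other time 1 cells. The proliferation list summed to 2757 CPM against 3652, with 0 of 16 genes at 50 CPM 4-fold different.

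**Figure D2:**
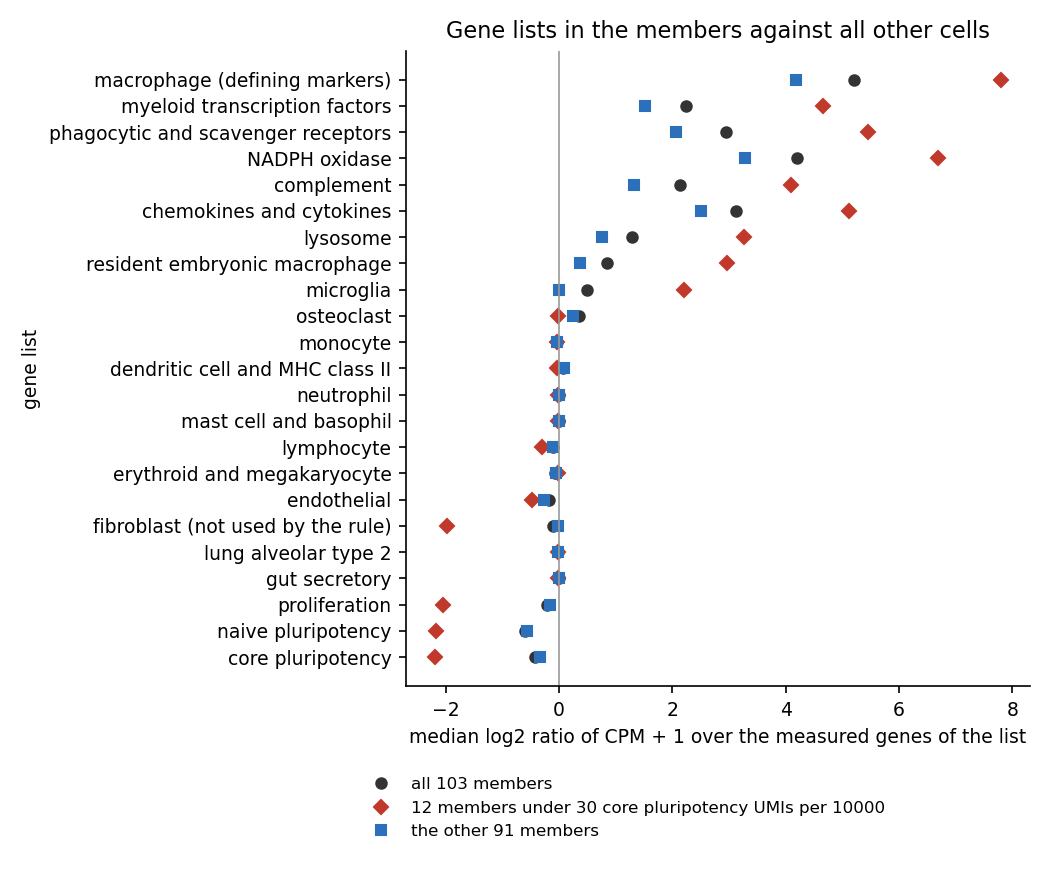
Median log2 ratio of CPM plus 1 (horizontal axis) over the measured genes of each list (vertical axis), members against all other cells, for all members, for the 12 with few pluripotency UMIs and for the other 91. The macrophage and macrophage function lists lie to the right of 0 in each group of members, the lists of neutrophils, lymphocytes and alveolar cells lie near 0, and core pluripotency lies far below 0 in the 12 cells, which were picked on it.

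Summed profiles hid a wide range between cells. The 20 macrophage markers ran from 0.239 to 331.7 UMIs per 10000 UMIs of a cell with a median of 14.3, against a median of 0.108 in the other time 1 cells, where the 95th percentile was 0.691. The 12 core pluripotency genes ran from 2.48 to 144.2 per 10000 with a median of 83.5, against 85.3 in the other time 1 cells. Across the 103 members, Lyz2 and the macrophage markers went together (Spearman's rho 0.951, Pearson's r 0.706), as did the macrophage markers and the lysosomal genes (0.944 and 0.746), while macrophage markers and core pluripotency ran opposite (-0.369 and -0.613). These are descriptions over cells that share 2 libraries and a total, and more of one list leaves a smaller share for the others. Lyz2 also selected the members, and its median per 10000 was 2.52 in the Lgals3-led and 44.8 in the Pf4-led set, described below. The macrophage markers had medians of 1.37 and 57.3 there, so the rank order partly restates the sets.

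**Figure D3:**
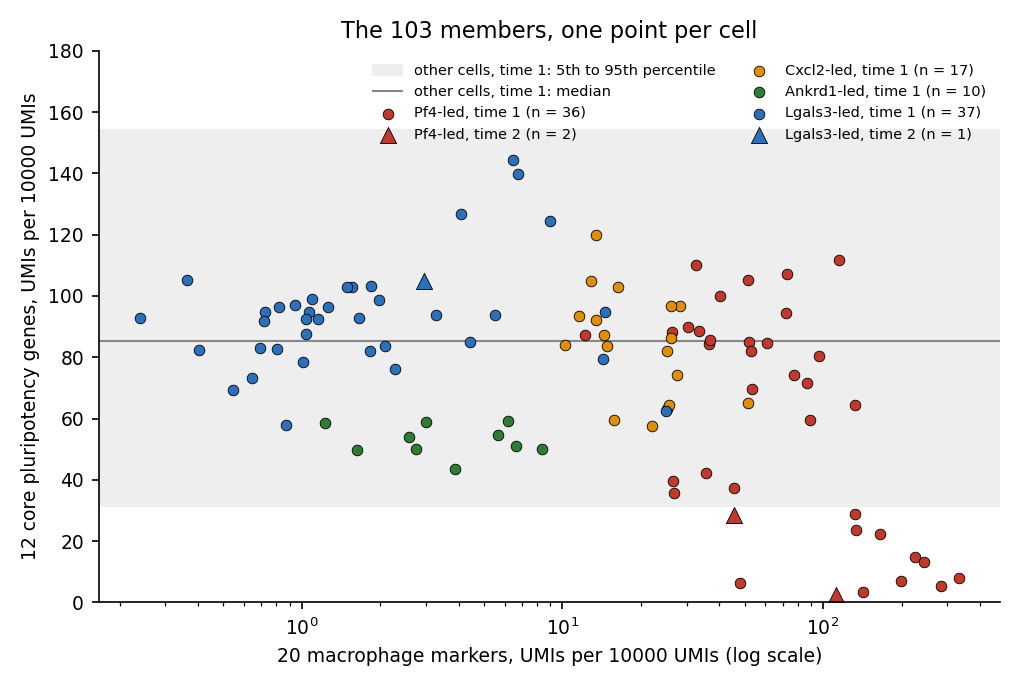
Each member's UMIs of 20 macrophage markers per 10000 UMIs (horizontal axis, log scale) against its UMIs of 12 core pluripotency genes per 10000 (vertical axis), coloured by set, circles for time 1 and triangles for time 2. The grey band holds the 5th to 95th percentile of the other time 1 cells, 31.6 to 154.2, and 12 members lie under 30, at 45.6 or more macrophage UMIs per 10000.

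Clustering of the members on their own split them into 4 sets, called here by the gene with the highest ratio among those at 50 CPM or more that the selection had not used. The sets are a description of the counts that formed them. The Pf4-led set held 38 cells (36 at time 1 and 2 at time 2), the Cxcl2-led set 17 and the Ankrd1-led set 10, both at time 1 only, and the Lgals3-led set 38 (37 and 1). The Pf4-led set had 6 of the 20 macrophage markers among its 10 leading genes, and so did the Cxcl2-led set. Such markers were nearly absent from the other cells, with C1qb at 0.32 CPM, so these ranks do not name a cell type. Median core pluripotency in the Cxcl2-led set was near that of the other time 1 cells. The same held for the median of 26 of the 38 Pf4-led cells, as given below. Single cells among these 26 ranged widely, and some lay far under that median. The low-pluripotency cells of the Pf4-led set and the rest of that set are described in turn.

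Among the Pf4-led cells 12 had fewer than 30 core pluripotency UMIs per 10000, a limit chosen after the values were seen and drawn between 28.7 and 35.8. It marks a range and not a type: 4 members lay between 20 and 30 and 3 between 30 and 40. Of the 12, 10 came from time 1 and 2 from time 2. Their Lyz2 ran from 180 to 2101 UMIs with a median of 718, and the macrophage markers from 45.6 to 331.7 per 10000 with a median of 153.7. Pou5f1 ran from 0 to 24 UMIs with a median of 3.5, against a median of 30 in the other time 1 cells. The proliferation list had a median of 6.36 per 10000, against 31.7 in the other time 1 cells. The fibroblast genes of the selection ran from 2 to 30 UMIs in these cells, with a median of 14.5. S100a4 alone also ran from 2 to 30 with a median of 14.5, and Col1a1 was at 0 in all 12. Neutrophil markers ran from 0 to 3 UMIs.

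In the summed UMIs of these 12 cells, 561 of 3504 genes were at least 4-fold higher than in the other cells (16%) and 162 at least 4-fold lower (4.62%). At any level 1323 of 28262 genes were at least 4-fold higher (4.68%), among them all 20 macrophage markers, 28 of 34 lysosomal genes, 15 of 18 chemokines and cytokines, 11 of 12 myeloid transcription factors and 6 of 9 genes of iron handling. Fth1, the ferritin heavy chain that stores iron, reached 37888 CPM against 1755 and Apoe, a lipid carrier, 8223 against 481.6. Of the genes that had not set the limit, 1159 of 28262 in all were at least 4-fold lower at any level (4.1%). Several lists held larger shares. Among them were 9 of 17 proliferation genes, 6 of 10 naive pluripotency genes, 4 of 11 trophoblast genes and 3 of 7 epithelial genes. The fibroblast genes that the selection had not used held 9 of 18, a count that its limit on fibroblast UMIs may have raised.

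The 12 cells differed from each other. C1qa ran from 0 to 204 UMIs with a median of 52 and Csf1r from 1 to 13, so every cell held Csf1r. Adgre1 ran from 2 to 18 and Trem2, a lipid-sensing receptor, from 12 to 117, again in all 12. One time 1 cell carried 1039 Pf4 UMIs. Another, with 881 Gpnmb UMIs, also held 602 of Mmp12, 2940 of Spp1, the secreted phosphoprotein osteopontin, only 4 of C1qa and none of Pf4. A time 2 cell held 490 UMIs of Gpnmb, 2 of C1qa and none of Pf4 or Mmp12. The other time 2 cell with few pluripotency UMIs had 185 of Pf4, 34 of C1qb and 24 of Pou5f1. The neutrophil-recruiting chemokine Cxcl2 was at 0 in 8 of the 12 and at 99, 77 and 249 UMIs in the 3 highest. One cell with 1622 Lyz2 UMIs had no Tyrobp or C1qa UMI, 5 of C1qb and 13 of Csf1r. Of the 12, 3 held UMIs of Y-linked genes without Xist, 7 held Xist without Y-linked UMIs, 1 held both and 1 neither.

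The other 26 Pf4-led cells, all at time 1, held both programmes. Their Lyz2 ran from 54 to 810 UMIs with a median of 105, and C1qa from 2 to 161 with a median of 22.5. Core pluripotency ran from 35.8 to 111.7 per 10000 with a median of 84.5, close to the 85.3 of the other time 1 cells, and Pou5f1 from 9 to 48 UMIs. Pf4 ran from 0 to 77 UMIs in these 26 cells with a median of 4.5. Its log2 ratio there was 7.7, below the 9.5 of C1qb. The set's name thus rests on the 12 low-pluripotency cells, where Pf4 ran from 0 to 1039 UMIs. In the Pf4-led set as a whole 236 of 3123 genes were at least 4-fold higher (7.56%). At any level 2.62% of genes and all 20 macrophage markers were.

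The Cxcl2-led set of 17 held inflammatory chemokines with the macrophage markers. Cxcl2 ran from 11 to 122 UMIs with a median of 27, Tnf, an inflammatory cytokine, from 1 to 20, and C1qb from 6 to 18, with none of the 17 at 0. Cxcl2 stood at 956.3 CPM, Ccl4 at 319.8, Ccl3 at 257.7 and the interleukin 1 receptor antagonist Il1rn at 169.2, all under 1 CPM in the other cells. Of 2864 genes, 59 were at least 4-fold higher (2.06%), and at any level 0.824% of genes, 13 of 18 chemokines and cytokines and 18 of 20 macrophage markers were. Core pluripotency had a median of 86.2 per 10000. Lyz2 lay between 32 and 78 UMIs in cells whose totals ran from 18421 to 65866 UMIs.

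The Ankrd1-led set of 10 carried contractile and matrix genes. Its cells had 10 to 26 Lyz2 UMIs, 17 to 45 UMIs of the fibroblast genes of the selection with a median of 39.5, where the limit was 50, and totals of 18171 to 24593 UMIs, near the lower limit. Acta1, skeletal muscle actin, ran from 11 to 29 UMIs and the mechanical stress gene Ankrd1 from 4 to 11, and both were at 0 in all 12 low-pluripotency cells. Of 3054 genes, 113 were at least 4-fold higher (3.7%) and 19 at least 4-fold lower (0.622%). At any level 2.45% of genes were at least 4-fold higher, with 5 of 6 smooth muscle genes, 9 of 18 further fibroblast genes and 12 of 20 macrophage markers. In so small a pool a few UMIs are enough for a call. Ctss, at 0 in 9 of the 10 cells and at 2 UMIs in the highest, had a log2 ratio of 3.04. Counts at any level thus depend on the size of the pool and are not comparable between sets. Timp1, a protease inhibitor, stood at 2420 CPM against 89.9 and Acta2, smooth muscle actin, at 2266 against 55.8. The further fibroblast genes had a median of 48.2 UMIs per 10000, against 92.5 in the 1124 cells with 50 or more fibroblast UMIs. Smooth muscle genes had a median of 62.3, against 20.7 in those cells, where the 95th percentile was 190.9. Such levels were not particular to this set. Macrophage markers ran from 3 to 18 UMIs with a median of 7.5. Tyrobp stood at 104.4 CPM, while Cd14, Mpeg1 and Aif1 had no UMI. Single genes of other blood lists were at least 4-fold higher as well: the platelet chemokine Ppbp at 131.7 CPM against 0.56, the basophil protease Mcpt8 at 245.2 against 7.08 and, from the monocyte list, the matrix gene Fn1 at 712.9 against 144.3. Pluripotency genes were present at a median of 52.6 per 10000.

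The Lgals3-led set of 38 had few genes at 50 CPM or more that stood apart from the other cells. Of 2803 genes, 2 were at least 4-fold higher (0.0714%), Lyz2 itself and Lgals3, which encodes the lectin galectin-3, at 194.1 CPM against 36.7. Lgals3 ran from 0 to 73 UMIs per cell with a median of 4, and 11 of the 38 cells held 372 of its 481 UMIs. The other 27 cells stood at 63.3 CPM, so the call and the set's name rest on a few cells. As many genes, 2 (0.0714%), were at least 4-fold lower, Gm42047 at 12.1 CPM against 52.2 and AY036118 at 12.1 against 54.5. Its cells had 10 to 67 Lyz2 UMIs with a median of 14.5, in totals with a median of 58599 UMIs. Macrophage markers ran from 2 to 66 UMIs with a median of 9.5, against a median of 1 in the other time 1 cells. None of the 20 markers reached 50 CPM in the set, but 19 had ratios above 0, 8 were at least 4-fold higher at any level, as were 0.092% of all genes, and they summed to 243.0 CPM against 20.6. C1qb, at 35.9 CPM, and C1qa, at 35.5 CPM, had log2 ratios of 4.80, above the 2.37 of Lgals3. The keratin genes Krt8 and Krt18, of simple epithelia, stood at 291.4 and 229.6 CPM, against 97.9 and 79.6 in all other cells and 145.0 and 125.9 in the other time 1 cells. Core pluripotency had a median of 93.3 per 10000. The set is left unnamed.

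**Figure D4:**
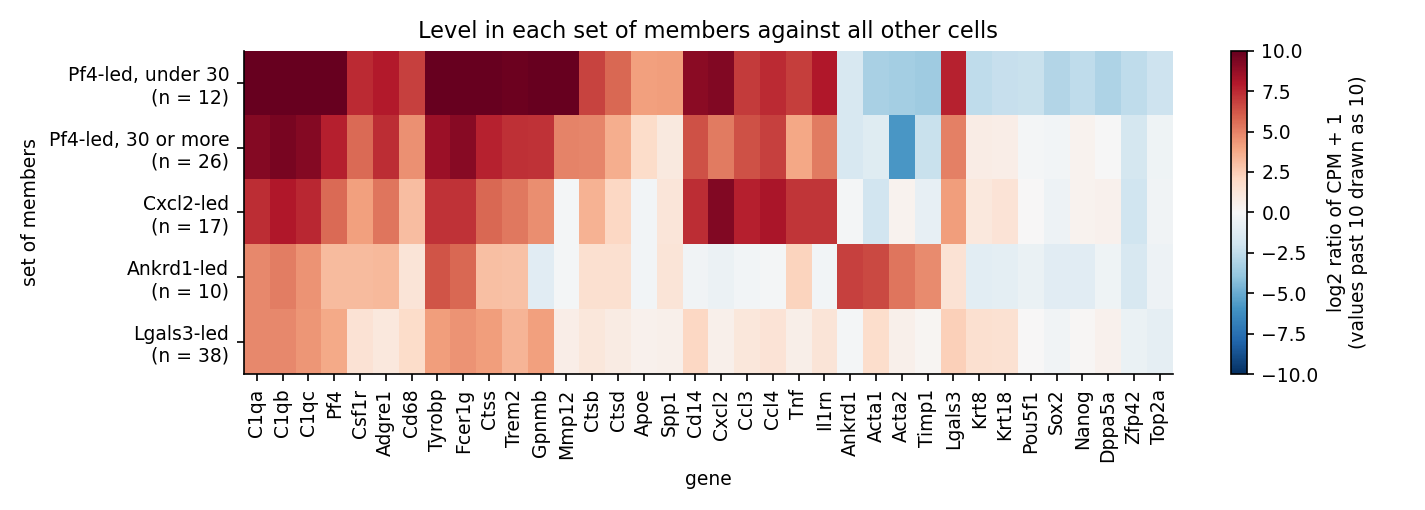
Log2 ratio of CPM plus 1 against all other cells (colour) for 36 genes (horizontal axis) in the sets of members, with the Pf4-led set split at 30 core pluripotency UMIs per 10000 (vertical axis). C1qa, C1qb and C1qc are above 0 in every set, and Acta1 and Ankrd1 are high in the Ankrd1-led set. Cxcl2 and Tnf are high in the Cxcl2-led set and in the sum of the Pf4-led cells under 30, of which 8 of 12 hold no Cxcl2. In the other 26 Pf4-led cells Cxcl2 has a log2 ratio of 5.17, and 6 of these cells hold none.

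The cells of some sets were almost as alike as repeated draws from 1 profile. For 684 genes with a mean of at least 2 UMIs in the other time 1 cells after thinning to 10000 UMIs, the variance of counts between cells divided by their mean had a median of 1.35 in those cells, where pure counting noise gives about 1. It was 0.964 in the Ankrd1-led set, 1.05 in the Cxcl2-led set and 1.11 in the Lgals3-led set. The 26 Pf4-led cells had 1.18 and the 12 low-pluripotency cells 1.68. As clustering gathers cells that are alike, a lower value is partly built in. The number of distinct cells behind the barcodes of these sets was not tested.

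**Figure D5:**
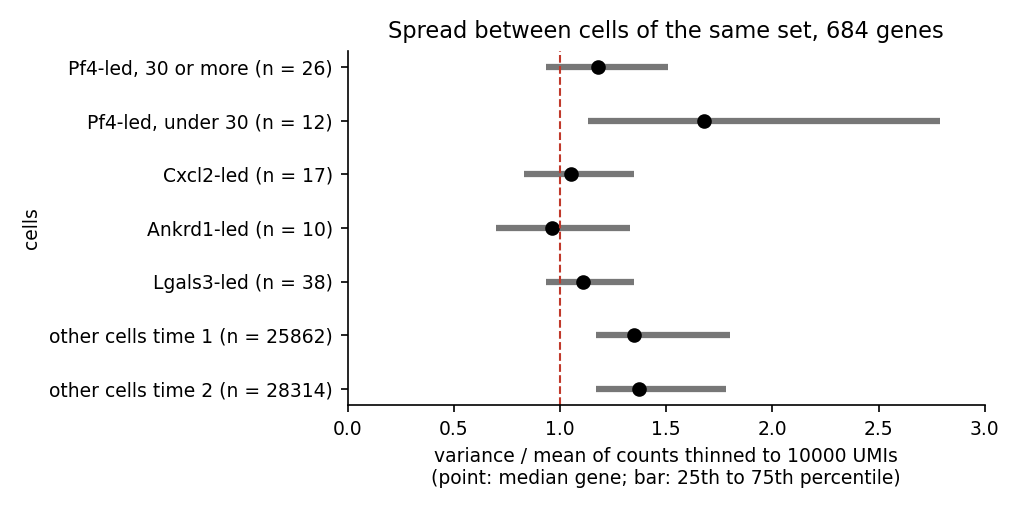
Variance divided by mean of thinned UMI counts between the cells of a set (horizontal axis), as the median gene (point) and the 25th to 75th percentile (bar) of 684 genes, for the sets of members and the other cells (vertical axis). The dashed line at 1 marks counting noise, and the Ankrd1-led set lies at 0.964, the low-pluripotency Pf4-led cells at 1.68 and the other time 1 cells at 1.35.

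Few members came from time 2, and they rest on 3 cells. The 2 in the Pf4-led set had 132.7 and 39.4 Lyz2 UMIs per 10000. The third had 16 Lyz2 UMIs in a total of 156772, with 46 UMIs of macrophage markers and 130 of Pou5f1. The time 1 members alone gave a median log2 ratio of 5.23 over the 20 macrophage markers and the time 2 members 5.53. Whether the lower share at time 2 differs from time 1 beyond the spread between cultures cannot be told with 1 library each.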

How the data were processed

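Single cells were captured with 10x Chromium version 3.1 chemistry, per the labels' protocols, with a single library at either time. The deposited matrices hold the authors' raw UMI counts, which Cell Ranger 6.1.2 wrote, per the file headers, after bcl2fastq 2.20.0.422, with the builds mm10 and GRCm38 named in the submitters' processing notes.

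The members and gene lists were chosen with earlier results of these data known. UMIs were summed over members and over all other cells, scaled to CPM and compared as log2 ratios with a pseudocount of 1, at a 4-fold limit, where either side reached 50 CPM. There were no replicates, so nothing was tested; summed counts have exact Poisson 95% intervals and shares exact Clopper-Pearson ones, which cover counting error only. Named genes are those of the lists and, without Lyz2 and the 5 fibroblast genes of the selection, the 20 highest and 10 lowest ratios that were at least 2-fold in the same direction in each library with 20 or more members. The files lacked 3 listed genes. Members, thinned to 10000 UMIs, were clustered with scanpy 1.11.5 and Leiden (igraph 0.11.9; 1000 variable genes, 20 principal components, 10 neighbours, resolution 0.5). Scrublet was run per library on all cells. At its default rate it marked no cell, so it was given 0.8% per 1000 cells, a rate set after that was seen, and marked cells were kept. Positions are from GENCODE M21. Sums, intervals and dispersion were tested on simulated data. Alternatives changed thresholds, depth, doublets, pseudocount, gene minimum, library weights, comparison cells, clustering resolution and scaling (edgeR 4.0.16 in R 4.3.3). Scripts ran under Python 3.11.15 (pandas 2.3.3, scipy 1.17.1, numpy 2.4.6).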

Additional observations from a re-analysis of the deposited data

Results flagged for a closer look

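Lyz2 was also found in barcodes that no comparison used. At time 1, 79 barcodes of 5000 to 17999 UMIs held at least 10 Lyz2 UMIs, and at time 2 none did. They had 10 to 640 Lyz2 UMIs with a median of 25, and 1 to 403 UMIs of the 20 macrophage markers with a median of 17. Core pluripotency ran from 11.2 to 114.5 UMIs per 10000 with a median of 72.0, and 6 of the 79 lay under 30.

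The limit on fibroblast genes kept out 10 cells of time 1 with at least 10 Lyz2 UMIs, and none of time 2. These had 17 to 1755 Lyz2 UMIs with a median of 398, 7 to 1567 UMIs of macrophage markers with a median of 340, and 50 to 1513 UMIs of the 5 fibroblast genes with a median of 73. Their core pluripotency had a median of 20.8 UMIs per 10000. In the main comparison they were counted among the other cells.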

How the results depend on the processing

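At time 1 the members numbered 202 at 5 or more Lyz2 UMIs, 64 at 20 and 44 at 50, and 179 with at least 5000 and 58 with at least 30000 UMIs in all. The 75 genes at least 4-fold higher became 26, 135 and 190 at 5, 20 and 50 Lyz2 UMIs, 130 with no fibroblast limit, 211 from 10 CPM, 310 with no minimum, 122 at time 2 alone and 32 without the 12 low-pluripotency members, an alternative added after the data were seen, which also leaves 1 member at time 2. The 0 genes at least 4-fold lower became 1 at 5 and at 50 Lyz2 UMIs and with libraries weighted equally, 2 with no minimum and 10 at time 2 alone. The macrophage median of 5.21 was 4.15, 5.99 and 6.54 at 5, 20 and 50 Lyz2 UMIs, 4.80 with under 20 fibroblast UMIs, 5.64 with no limit, 4.90 from 30000 UMIs, 2.74 with a pseudocount of 10, 5.53 at time 2 alone, 4.18 without the 12 and 5.53 with cells weighted equally (also added later). The core pluripotency median of -0.433 was -0.550 at 50 Lyz2 UMIs, -0.554 with no fibroblast limit, -0.240 and -0.278 at time 1 and time 2 alone and -0.235 with equal libraries. Signs turned at time 2 alone for the chemokine list (-0.00284), naive pluripotency (0.257; 0.0521 with equal libraries), Ccl4 (-0.00325) and Cxcl2 (-0.0960), for Dppa5a at 20 and 50 Lyz2 UMIs (-0.0292 and -0.282) and at time 1 alone (-0.0973), and for Utf1 at 5 Lyz2 UMIs (0.139) and without the 12 (0.0229). In all, 21 of 1040 alternative values of single genes had the opposite sign; those printed are the ones whose main ratio had a counting interval clear of 0. No macrophage marker changed sign in 400 alternative values. The cause of these shifts was not tested. The number of sets was 4 at resolution 0.3 and 6 at 1.0. No paired analysis was possible because each time point has 1 library.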
